A study of Mus musculus with 6 samples.

Results

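Long non-coding RNA (lncRNA) loci that overlap no other listed gene are the subject here, in mouse trigeminal ganglion, the sensory ganglion of the head. A locus was taken when the deposited table typed it as lncRNA, its mean over all 6 libraries was at least 20 normalised reads, and its position touched no other listed gene on either strand. Of the 16415 genes in the table, 1644 were typed lncRNA, 1136 of those reached the mean of 20, and 380 were also free of overlap. Another 754 loci above the mean overlapped a listed gene, and 210 loci free of overlap had lower means. Meg3 and H19 were left out by the rule. The loci were thus chosen by the measured mean over all 6 libraries and by position, not by the difference between the groups. A locus can still reach the mean through 1 group alone, as 4931408D14Rik did. Levels near the threshold are descriptions.

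The series holds 6 libraries of polyadenylated RNA from wild-type (WT) trigeminal ganglion, 3 from the treatment group NC-up and 3 from the treatment group SETDB2-up. Setdb2 encodes a histone methyltransferase of the lysine 9 mark on histone H3. Neither group name is spelled out in the labels, which also give no route of treatment, strain or age. Whether each library stands for its own animal is not said either. The p-values below therefore reflect library-to-library spread, which may be technical.

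An lncRNA is a transcript without a long open reading frame. Some work at their own locus, on the gene beside them, and many start back to back with a protein-coding gene from a shared promoter. Others act away from it: Malat1 and Neat1 stay in nuclear bodies, Norad binds Pumilio proteins in the cytoplasm, and Oip5os1 (Cyrano) pairs with the microRNA miR-7. A locus that overlaps no listed gene is useful because reads in it can hardly be those of a listed neighbour's exons. That holds for the listed genes only. All 380 loci had the same identifier and coordinates in RefSeq on GRCm38.p6, and there 281 overlapped no other gene of any kind while 99 did, 8 of them a protein-coding one.

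The lncRNA with the largest difference in these libraries, Bc1, is a short RNA of neurons that RNA polymerase III makes and that represses translation near synapses. Its transcript in GENCODE M21 has 168 bases, and it is shown for its internal A-rich stretch, since the libraries were made from polyadenylated RNA. Capitals mark runs of at least 4 A. There were 4 such runs, the longest of 23 bases, and 43 of the 50 bases from position 77 to 126 were A.
Bc1: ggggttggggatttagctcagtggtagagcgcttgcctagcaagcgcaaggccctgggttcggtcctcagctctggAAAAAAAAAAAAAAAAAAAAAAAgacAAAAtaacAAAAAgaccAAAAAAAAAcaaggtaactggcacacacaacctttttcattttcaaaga

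Oip5os1 was among the loci higher in SETDB2-up, and its pairing partner shows how such an RNA can act on another. The mouse miR-7a-5p sequence (RefSeq) is given with its seed, bases 2 to 8, in capitals, and the Oip5os1 site with the bases that match the seed in capitals. The site lies at positions 2952 to 2958 of the 8300-base GENCODE M21 transcript, counted over the seed match. Outside the seed, 14 of the 15 bases of the microRNA could pair once 2 bases of the site were left unpaired. A second seed match, at 762 to 768, had at most 4 such pairs.
miR-7a-5p: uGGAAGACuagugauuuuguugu
Oip5os1 site: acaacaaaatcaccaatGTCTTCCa

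Norad was also higher in SETDB2-up. Its 4915-base transcript held 11 copies of TGTANATA, the core of the Pumilio recognition sequence, and none on the reverse complement. The first copy is shown with the motif in capitals and 10 bases on each side.
Norad site: agaagtcctgTGTATATAatatgaaaaa

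Promoters are shown for loci of both directions, since their base composition is compared further on. RefSeq on GRCm38.p6 gave a 300-base promoter, from 250 bases before the start to 50 after it, for 292 of the 380 loci. Capitals mark matches, on either strand, to the motifs CACCC (Kruppel-like factors), GGGCGG (SP factors) or TATAAA (the TATA box). The first 3 belong to loci that were lower in SETDB2-up and start within 200 bp of a gene on the other strand, the next pair to loci that were higher, and the last pair to neighbouring loci on chromosome X that were higher. They lie at chr13:48967862-48968161 (plus), chr2:20968624-20968923 (plus), chr8:121730428-121730727 (minus), chr2:119594046-119594345 (plus), chr14:104638894-104639193 (plus), chrX:105339448-105339747 (minus) and chrX:105391705-105392004 (minus), in the order printed.
Fam120aos: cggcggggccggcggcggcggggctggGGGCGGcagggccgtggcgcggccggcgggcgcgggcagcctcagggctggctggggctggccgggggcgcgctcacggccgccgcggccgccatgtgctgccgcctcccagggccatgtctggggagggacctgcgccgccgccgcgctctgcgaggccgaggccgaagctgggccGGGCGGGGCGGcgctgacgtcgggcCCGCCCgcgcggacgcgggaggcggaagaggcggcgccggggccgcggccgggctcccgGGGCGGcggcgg
Gm13375: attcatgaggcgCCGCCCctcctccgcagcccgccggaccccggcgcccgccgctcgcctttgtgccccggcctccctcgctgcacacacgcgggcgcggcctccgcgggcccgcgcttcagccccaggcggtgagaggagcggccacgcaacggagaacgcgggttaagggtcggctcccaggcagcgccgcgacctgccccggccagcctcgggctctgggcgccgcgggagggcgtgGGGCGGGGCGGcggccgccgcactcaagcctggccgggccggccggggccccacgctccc
Gm46065: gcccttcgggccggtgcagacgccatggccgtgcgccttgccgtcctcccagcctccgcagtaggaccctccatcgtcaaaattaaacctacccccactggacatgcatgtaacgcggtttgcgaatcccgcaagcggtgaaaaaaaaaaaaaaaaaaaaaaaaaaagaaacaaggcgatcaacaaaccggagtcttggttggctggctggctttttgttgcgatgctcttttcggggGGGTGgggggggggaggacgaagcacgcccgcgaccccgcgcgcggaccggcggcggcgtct
Oip5os1: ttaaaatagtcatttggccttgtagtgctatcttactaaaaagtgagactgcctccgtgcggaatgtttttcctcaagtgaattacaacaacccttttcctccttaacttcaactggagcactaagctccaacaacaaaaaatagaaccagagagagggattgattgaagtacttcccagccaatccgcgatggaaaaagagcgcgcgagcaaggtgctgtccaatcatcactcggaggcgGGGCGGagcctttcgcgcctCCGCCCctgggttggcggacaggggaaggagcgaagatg
D130009I18Rik: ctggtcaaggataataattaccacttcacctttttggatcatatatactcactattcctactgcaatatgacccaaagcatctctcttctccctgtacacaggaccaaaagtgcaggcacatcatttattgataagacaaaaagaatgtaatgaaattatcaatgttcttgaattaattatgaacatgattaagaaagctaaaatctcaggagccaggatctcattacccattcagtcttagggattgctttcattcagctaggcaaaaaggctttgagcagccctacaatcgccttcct
Gm50594: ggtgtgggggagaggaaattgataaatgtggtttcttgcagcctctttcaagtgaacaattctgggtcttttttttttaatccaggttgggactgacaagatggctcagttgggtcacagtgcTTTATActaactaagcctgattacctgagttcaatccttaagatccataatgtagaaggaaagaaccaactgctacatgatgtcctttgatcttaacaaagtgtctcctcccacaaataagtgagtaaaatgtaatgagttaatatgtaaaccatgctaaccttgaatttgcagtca
5330434G04Rik: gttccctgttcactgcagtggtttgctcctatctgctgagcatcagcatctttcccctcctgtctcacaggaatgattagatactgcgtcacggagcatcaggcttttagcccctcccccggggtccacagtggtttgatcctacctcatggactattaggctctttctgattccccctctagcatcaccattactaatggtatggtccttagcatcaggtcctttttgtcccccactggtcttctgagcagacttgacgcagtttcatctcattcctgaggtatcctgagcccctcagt

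Fam120aos, whose name marks it as antisense to Fam120a, held 5 matches to GGGCGG in a promoter of 86.7% GC with 54 CG dinucleotides. The Gm13375 promoter had 80.3% GC and 45 CG. D130009I18Rik had 37.7% GC and 1 CG, and Gm50594 had 38.7% GC and 0 CG.

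The tables behind the values were of moderate and even depth. Whole reads recovered from the normalised values summed to between 19334997 and 23501386 per library, so that 3 reads, the upper limit for a count of 0, correspond to 0.128 to 0.155 CPM. Setdb2 itself read 69.9, 58.4 and 71.5 normalised reads in NC-up, and 113, 97.6 and 104 in the SETDB2-up libraries (log2 fold change 0.65, limma adjusted p = 0.0253). All 10 sensory neuron markers were present, with summed levels of 209220 to 217720 in NC-up and 205920 to 210700 in SETDB2-up. Of these markers, 1 was higher and 1 lower. The summed level of 8 satellite glia and Schwann cell markers was 350840 to 368210 in NC-up and 308710 to 357730 in SETDB2-up, with 2 lower. Markers of other tissues also differed. The summed level of 10 liver markers was 46.0 to 52.7 in NC-up, and 2729, 6373 and 77.6 in the SETDB2-up libraries 1, 2 and 3, with 7 higher. The summed level of 5 keratinocyte markers was 173 to 518 in NC-up and 114 to 127 in SETDB2-up, with 4 lower, and 3 of the 4 measured muscle markers were lower. None of these markers is at 0 in every library. Their part in the results below was not tested, and in bulk tissue fewer cells of a type and less RNA per cell cannot be told apart.

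The loci spanned a wide range of levels. Norad had the highest mean, 17317 normalised reads, followed by Malat1 with 15414 and Neat1 with 10112, and the median locus had 46.4. Just inside the threshold of 20 lay Gm40255 with a mean of 20.2, Gm16759 with 20.3 and Gm31135 with 20.3. Just outside it lay 4930570G19Rik, Gm39080 and Gm34686, whose means fell short of 20 by less than 0.05. No locus was at 0 in any library.

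Levels can be compared between genes only per length. For the 264 loci with a GENCODE M21 transcript, the mean was therefore divided by the length of the longest one. These lengths may differ from those of the annotation used for counting, which is not stated. Ranks of short transcripts, such as Bc1 with 168 bases, are the least certain. Over all 6 libraries, the 8 highest means were those of Norad, Bc1, Malat1, 1500011B03Rik, Miat, AY036118, Gm47814 and Gm13067. The order differed between the groups. In NC-up, Bc1 was highest with 6020 normalised reads per kb, ahead of Norad with 3244 and Malat1 with 2044. In SETDB2-up, Norad was highest with 3802, ahead of Malat1 with 2371, and Bc1 had 232 and ranked 16. The other five lay between 400 and 818 normalised reads per kb in NC-up and between 603 and 755 in SETDB2-up. The 380 loci together held 0.416%, 0.406% and 0.393% of the signal in the NC-up libraries and 0.459%, 0.475% and 0.381% in SETDB2-up 1, 2 and 3. SETDB2-up 3 was thus the lowest of the 6 and the other SETDB2-up libraries the highest. The 4 most abundant loci alone held 54.6% to 60.4% of the summed signal of the 380 loci in each library.

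Between the groups, 16 of the 380 loci were higher in SETDB2-up and 11 were lower, at a limma adjusted p below 0.05 over all genes tested. That is 7.11% of the loci, where 16.4% of all 16387 genes tested passed the same threshold. By direction, 4.21% of the loci were higher, against 7.71% of all genes, and 2.89% were lower, against 8.71%. The median log2 fold change was 0.09 over the loci and 0.00 over all genes, with 220 loci above 0 and 160 below. Groups did not overlap in 49 loci with SETDB2-up above and 34 with SETDB2-up below, which compares with 16.8% and 16.4% of all genes, or 33.3% in either direction. An unadjusted p below 0.05 was reached by 71 loci and by 30.6% of all genes. The counts fell by over 1.5 times without some single libraries. Leaving out SETDB2-up 1 gave 5 higher and 6 lower, leaving out SETDB2-up 2 gave 6 and 5, and leaving out NC-up 2 gave 10 and 6. Leaving out libraries changes what can be detected in every gene, and the shares of all genes called in such fits are not given here. Counts from these fits are therefore not read as particular to the loci. With SETDB2-up 1 and 2 both left out, limma called 0 higher and 7 lower, with 9 and 17 at an unadjusted p below 0.05; no other tool was run on those libraries.

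The other lncRNA loci of the table were mostly lower where they were called. Among the 754 at the same minimum mean that overlap a listed gene, 8 were higher (1.06%) and 129 lower (17.1%). Over all genes tested, 7.71% were higher and 8.71% lower. The median log2 fold change of the 754 was -0.15. The difference from the loci free of overlap was not tested. No source used here says how the authors' counting shared reads between overlapping genes.

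**Figure D1:**
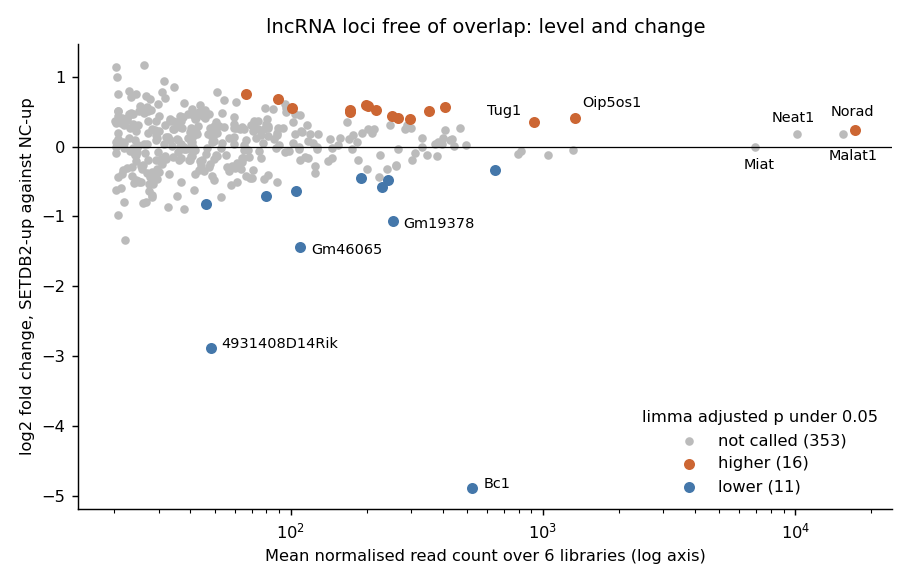
Each point is 1 of the 380 lncRNA loci: the horizontal log axis is the mean normalised read count over 6 libraries and the vertical axis the log2 fold change of SETDB2-up against NC-up, coloured by the call. The 16 loci called higher lie between 0.23 and 0.75, while 4 of the 11 called lower lie below -1.

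Few loci of low level were called, and more of those above 100 normalised reads. From 20 to under 50 normalised reads, 2 of 206 loci were called (0.971%), against 52 of 1092 protein-coding genes (4.76%). From 50 to under 100 it was 3 of 81 loci (3.70%), against 62 of 1046 genes (5.93%). Above that the order turned: 7 of 41 loci (17.1%) against 130 of 1448 genes (8.98%) from 100 to under 200, and 13 of 45 (28.9%) against 879 of 5559 (15.8%) from 200 to under 1000. At 1000 and more, 2 of 7 loci (28.6%) and 1364 of 4855 genes (28.1%) were called. The median standard error of a log2 fold change was 0.35 in the lowest class of loci and 0.08 in the highest, so a given change was harder to detect in the low loci, which were 206 of the 380. These shares are descriptions without a test.

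**Figure D2:**
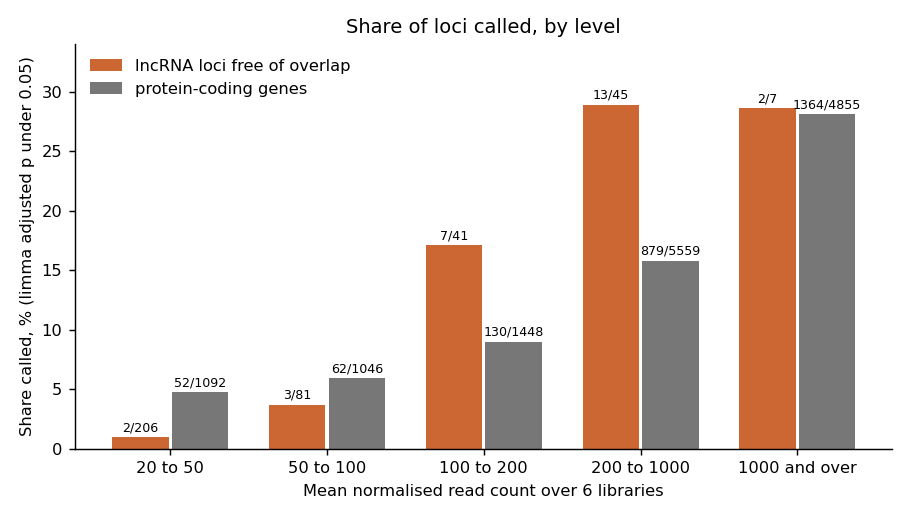
Bars give the percentage of loci or genes called (limma adjusted p under 0.05) in 5 classes of mean normalised read count, for the lncRNA loci free of overlap and for protein-coding genes; the numbers above the bars are called over total. The lncRNA share goes from 0.971% in the lowest class to 28.9% from 200 to under 1000.

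Bc1 had 1141, 937 and 956 normalised reads in NC-up, and 46.5, 57.0 and 13.4 in the SETDB2-up libraries. Every SETDB2-up library was far below every NC-up library, and the means were 1011 ± 113 and 39.0 ± 22.8 (SD, n = 3 each). Its difference on the log2 scale, -4.89 ± 0.32 (SE; limma adjusted p = 1.19e-08), was the largest in either direction among the 380 loci. Every value after ± for a log2 fold change is an SE. The locus lies at chr7:144914470-144914623 on the plus strand. LTO1, which starts 477 bp further along the same strand, had a log2 fold change of -0.01 (limma adjusted p = 0.966). Bc1 is the source of a family of short repeats, and no source used here says how reads that match several places were counted.

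The other locus with a large fall, 4931408D14Rik at chr19:37258423-37264095 (minus), read 103, 75.7 and 77.8 in NC-up, and 13.3, 11.2 and 8.03 in the SETDB2-up libraries. The groups were well apart, and the log2 fold change was -2.88 ± 0.32 (limma adjusted p = 1.02e-05). It begins 4648 bp past the end of Ide, the insulin-degrading enzyme gene, on the same strand. Ide fell by 0.80 on the log2 scale (limma adjusted p = 1.91e-07). Whether transcription runs from one into the other was not tested.

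Gm46065, at chr8:121724883-121730477 (minus), read 169.5, 159.9 and 147 in NC-up, and 64.6, 69.2 and 43.7 in the SETDB2-up libraries. The groups did not overlap, and the log2 fold change was -1.44 ± 0.20 (limma adjusted p = 0.000103). Its promoter, printed above, is shared with Jph3, which encodes a junctophilin that ties the cell membrane to the endoplasmic reticulum in neurons. Jph3 starts 82 bp away on the other strand and had a log2 fold change of -0.14 (limma adjusted p = 0.157). Gm19378, at chr15:89767615-89769242 (plus), read 353, 305 and 369 in NC-up, and 188, 182 and 125 in the SETDB2-up libraries, again without overlap. Its log2 fold change was -1.07 ± 0.15 (limma adjusted p = 0.000122). Its neighbour Syt10, a synaptotagmin gene 4472 bp away, was near 0 change at -0.02.

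Each called locus other than Bc1, 4931408D14Rik, Gm46065 and Gm19378 lost its call under at least 1 alternative. Of these 4, only Bc1 has a transcript for the GC correction, which ended 18 calls elsewhere. The 4 loci kept their call under every alternative that could be run for them. They were also called with SETDB2-up 1 and 2 left out, with log2 fold changes of -6.13, -3.24, -1.84 and -1.44. The other 3 of the 7 lower loci in that comparison were 6430573P05Rik (-1.13), Malat1 and Miat.

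The remaining falls were smaller. Gm13375, at chr2:20968874-20970348 (plus), read 262, 293 and 265 in NC-up, and 207, 141 and 209.7 in the SETDB2-up libraries, with SETDB2-up 2 lowest. Its log2 fold change was -0.57 ± 0.15 (limma adjusted p = 0.0124), while Arhgap21, 183 bp away on the other strand, was at 0.00. Snhg20, a host gene of a small nucleolar RNA at chr11:117076783-117078955 (plus), read 314, 303 and 232 in NC-up, and 213, 186 and 206 in the SETDB2-up libraries (-0.47 ± 0.13, limma adjusted p = 0.0210). The groups lay close together, since the lowest NC-up value was 232 and the highest SETDB2-up value 213. AY036118, at chr17:39848112-39898385 (minus), read 682, 772 and 695 against 532, 522 and 655 (-0.34 ± 0.10, limma adjusted p = 0.0218). Fam120aos, at chr13:48968112-48969905 (plus), read 214, 247 and 197 against 142, 167 and 171 (-0.45 ± 0.14, limma adjusted p = 0.0343). Fam120a, which encodes an RNA-binding protein and starts 52 bp away on the other strand, had a log2 fold change of -0.13 (limma adjusted p = 0.128).

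The last 3 falls were 1700030C10Rik, 6430573P05Rik and 1700096K18Rik. 1700030C10Rik (chr12:20804389-20815779, minus) read 99.6, 83.3 and 115 against 72.2, 52.9 and 57.1 (-0.70 ± 0.21, limma adjusted p = 0.0281). 6430573P05Rik (chr3:79286855-79289843, plus) read 113, 141 and 125 against 93.1, 99.7 and 57.1 (-0.63 ± 0.21, limma adjusted p = 0.0445). It starts 310 bp from Rapgef2, an exchange factor for Rap proteins on the other strand, which moved the other way (0.22, limma adjusted p = 0.0244). 1700096K18Rik (chr5:25530018-25531466, plus) read 47.7, 77.6 and 52.7 against 30.4, 29.5 and 38.4 (-0.82 ± 0.27, limma adjusted p = 0.0485). In all 3 the groups did not overlap.

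Each of these smaller falls missed the threshold when certain single libraries were left out, at the log2 fold changes given here. Leaving out NC-up 2 ended the call of Gm13375 (-0.52), Snhg20 (-0.42), AY036118 (-0.28), Fam120aos (-0.36), 6430573P05Rik (-0.55) and 1700096K18Rik (-0.61). Leaving out SETDB2-up 1 ended it for Snhg20 (-0.51), AY036118 (-0.29), Fam120aos (-0.37), 6430573P05Rik (-0.73) and 1700096K18Rik (-0.77). Leaving out SETDB2-up 2 ended it for Gm13375 (-0.39), Snhg20 (-0.42), AY036118 (-0.28), 1700030C10Rik (-0.61), Fam120aos (-0.48) and 1700096K18Rik (-0.75). Leaving out NC-up 1, NC-up 3 or SETDB2-up 3 ended fewer. NC-up 1 did so for Snhg20 (-0.39) and 1700030C10Rik (-0.69). NC-up 3 did so for 1700030C10Rik (-0.59), 6430573P05Rik (-0.64) and 1700096K18Rik (-0.88), and SETDB2-up 3 for 1700030C10Rik (-0.66) and 6430573P05Rik (-0.38).

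**Figure D3:**
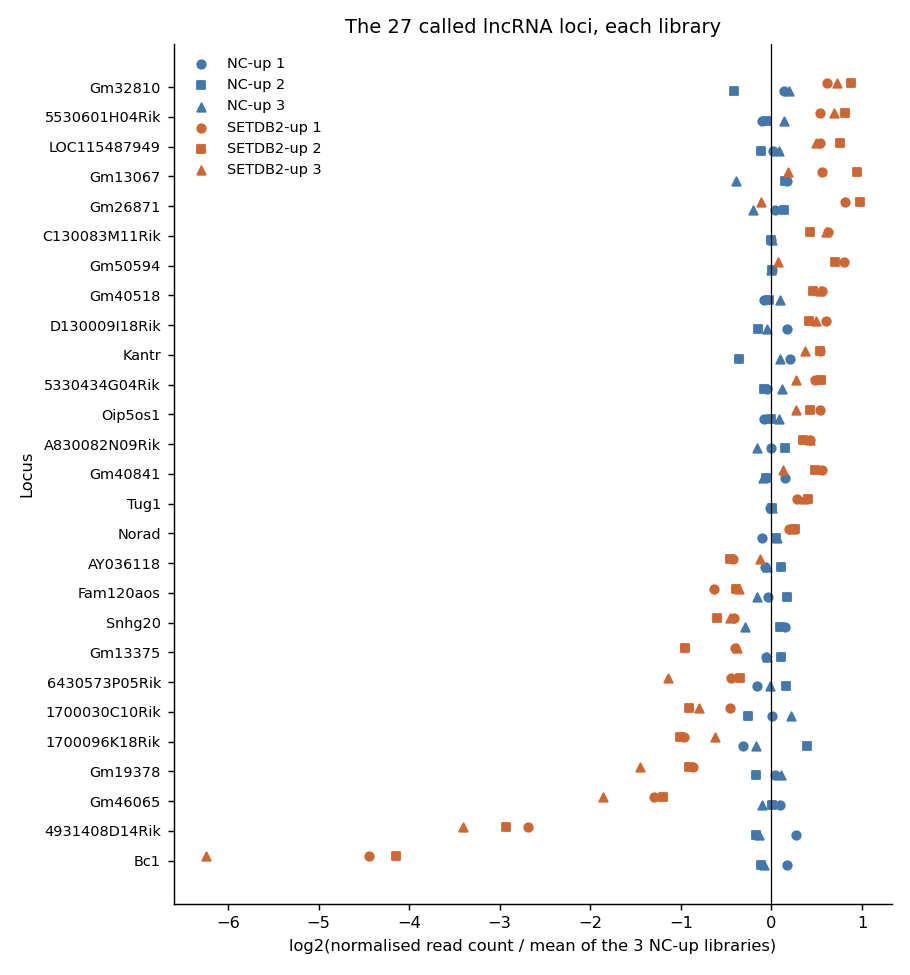
For the 27 called loci, each symbol is 1 library: the horizontal axis is log2 of its normalised read count over the mean of the 3 NC-up libraries, so 0 is the NC-up mean. The SETDB2-up libraries lie on 1 side of the NC-up libraries in all loci but Gm26871 and Gm40841, and Bc1 and 4931408D14Rik lie far to the left.

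Rises were smaller than the large falls, from 0.23 to 0.75 on the log2 scale. Oip5os1, at chr2:119594296-119600746 (plus), read 1077, 1138 and 1212 in NC-up, and 1659.6, 1537 and 1378 in the SETDB2-up libraries. All SETDB2-up libraries were above all NC-up libraries, with means of 1142 ± 67.5 and 1525 ± 141 (SD, n = 3 each), which gave a log2 fold change of 0.41 ± 0.08 (limma adjusted p = 0.00134). Chp1, a calcium-binding protein gene 7272 bp upstream on the same strand, was also higher (0.20, limma adjusted p = 0.0243).

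Tug1, an abundant lncRNA first known from the retina, lies at chr11:3639785-3648814 (minus) and read 805, 812 and 817 in NC-up, and 989, 1076 and 1037 in the SETDB2-up libraries. The NC-up libraries were almost equal and the groups well apart (0.35 ± 0.07, limma adjusted p = 0.00315). Morc2a, a chromatin regulator gene that starts 375 bp away on the other strand, was at 0.02. Norad, at chr2:156388063-156392979 (minus), read 14781, 16457 and 16598 against 18290.0, 19038 and 18736 (0.23 ± 0.06, limma adjusted p = 0.00955). The groups did not overlap, but without NC-up 1, its lowest library, the log2 fold change was 0.18 (limma adjusted p = 0.0710). Cnbd2, 12425 bp away, moved the other way (-0.62, limma adjusted p = 0.000127).

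D130009I18Rik spans chr14:104639144-104966783 (plus) and read 328, 263 and 282 in NC-up, and 442, 389 and 410.5 in the SETDB2-up libraries. The groups did not overlap (0.51 ± 0.11, limma adjusted p = 0.00437). The nearest listed gene, the ubiquitin ligase gene Obi1, lies 116432 bp away and rose by the same amount (0.51, limma adjusted p = 0.000983). LOC115487949 (chr12:21543241-21567917, plus) read 160.0, 147 and 168 against 229.9, 266 and 222 (0.59 ± 0.13, limma adjusted p = 0.00551). Among the alternatives that could be run, its call was lost only without SETDB2-up 1 and 2 together. It has no transcript for the GC correction.

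Gm40518 (chr9:48132748-48158748, minus) read 133, 139 and 151 in NC-up, and 207, 194 and 205 in the SETDB2-up libraries, with little spread in either group (0.52 ± 0.14, limma adjusted p = 0.0144). Gm32810 (chr1:112377329-112416918, minus) read 55.1, 37.4 and 57.2 against 76.0, 91.5 and 82.1, the largest rise among the called loci (0.75 ± 0.23, limma adjusted p = 0.0320). Its nearest listed gene, Dsel, lies 512277 bp away and was also higher (0.31, limma adjusted p = 0.0411). Gm13067 (chr4:150029405-150058717, plus) read 182, 179 and 123 against 237, 310.2 and 183, which leaves the groups almost touching (0.58 ± 0.18, limma adjusted p = 0.0346). C130083M11Rik (chr5:52199984-52216433, minus) read 81.6, 81.4 and 82.2 against 126, 109.8 and 124, so that the groups were well apart (0.55 ± 0.17, limma adjusted p = 0.0367).

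Outside the rule for naming loci, and named after their values were seen, 3 more were higher. A830082N09Rik read 229, 254 and 206 against 308, 292 and 309 (0.40 ± 0.12, limma adjusted p = 0.0251). In the other two, the groups overlapped. Gm40841 read 284, 245 and 240.5 against 376, 358 and 280.2 (0.39 ± 0.13, limma adjusted p = 0.0411), and Gm26871 read 332, 355 and 279 against 565, 633 and 296 (0.56 ± 0.19, limma adjusted p = 0.0470). In both, SETDB2-up 3 lay among the NC-up libraries. Without SETDB2-up 1 and 2, Gm26871 was at -0.11.

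Smaller rises also missed the threshold without certain single libraries, in many cases at a similar log2 fold change. Leaving out SETDB2-up 1 ended the call of Gm40518 (0.50), A830082N09Rik (0.39), Gm32810 (0.81), Gm13067 (0.58), C130083M11Rik (0.51), Gm40841 (0.31) and Gm26871 (0.43). Leaving out SETDB2-up 2 ended it for A830082N09Rik (0.43), Gm32810 (0.68), Gm13067 (0.39), C130083M11Rik (0.61), Gm40841 (0.34) and Gm26871 (0.35). Leaving out NC-up 2 ended it for Gm32810 (0.56), C130083M11Rik (0.54), Gm40841 (0.36) and Gm26871 (0.64), and leaving out NC-up 3 for A830082N09Rik (0.33), Gm13067 (0.40), C130083M11Rik (0.55), Gm40841 (0.35) and Gm26871 (0.46). C130083M11Rik lost its call without any 1 library, including NC-up 1 (0.55) and SETDB2-up 3 (0.52). Gm26871 also lost it without NC-up 1 (0.59) and Gm32810 without SETDB2-up 3 (0.75).

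The places of the libraries with the liver signal among the 6 were counted. SETDB2-up 1 and 2 were the 2 highest of the 6 libraries at 71 of the 380 loci (18.7%), against 15.9% of all genes tested, and at 17 of the 52 loci with a mean of at least 200 (32.7%). They were the 2 lowest at 17 of the 380 loci (4.47%), against 16.0% of all genes. Among called loci they were the 2 highest at 8 of the 16 called higher and the 2 lowest at 4 of the 11 called lower (36.4%). Where groups do not overlap, the 3 SETDB2-up libraries already hold the 3 highest or lowest places, so nothing is read from these last counts. Of the 16 loci called higher, 15 stayed above 0 without them, although none was then called. A part of the liver signal in these differences was not tested.

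Base composition also moved with direction. Transcript GC had a median of 40.4% in the 14 loci called higher that have a GENCODE transcript, against 47.6% over the 264 loci with one. Of the 27 called loci, 22 have a transcript. After each library's log2 values were corrected for a trend with GC and refitted, 4 of those 22 were still called. These were Bc1 (-5.07, limma adjusted p = 2.83e-08), Gm13067 (0.79, 0.0198), 6430573P05Rik (-0.74, 0.0388) and 1700096K18Rik (-0.96, 0.0480). Oip5os1 went from 0.41 to 0.22 (limma adjusted p = 0.0559), Tug1 from 0.35 to 0.13 (0.330), Norad from 0.23 to 0.13 (0.167) and D130009I18Rik from 0.51 to 0.31 (0.0985). Gm13375 went from -0.57 to -0.23 (limma adjusted p = 0.407), AY036118 from -0.34 to -0.24 (0.121), Snhg20 from -0.47 to -0.41 (0.0758) and Fam120aos from -0.45 to -0.46 (0.0583). Over all 380 loci the check is void, because only 69.5% of them have a transcript.

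Promoters showed the same order. The median GC of the promoter was 51.0% in the 13 higher loci with a sequence and 61.0% in the 11 lower ones, against 54.5% in the 292 loci with a sequence and 52.7% in all 27025 promoters of the RefSeq table. The ranges overlapped, from 37.7% (D130009I18Rik) to 71.3% (Tug1) in the higher loci and from 32.7% (AY036118) to 86.7% (Fam120aos) in the lower ones. The lower loci Bc1 (45.7%), 4931408D14Rik (49.0%) and Gm19378 (35.7%) lay below the median of the higher loci. The median number of CG dinucleotides was 9 in the higher loci and 29 in the lower ones, against 12 in the loci and 7 in all promoters. GGGCGG was in 46.9% of the loci's promoters and 35.9% of all, in 4 of the 13 higher and 6 of the 11 lower. CACCC was in 56.5% and 56.8%, in 4 higher and 5 lower. TATAAA was in 13.7% and 14.2%, in 4 higher and 1 lower. TGACGTCA (3.42% of the loci, 1.85% of all), CACGTG (8.56%, 7.24%) and the NRF1 palindrome (1.71%, 0.981%) were in 0 of the called loci. All were searched on both strands, and a motif may overlap another. These are matches of letters, described without a test.

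On chromosome X, 4 of the 13 loci were higher and 0 were lower, and 10 were above 0. Among all 527 genes tested on this chromosome 18.2% were higher and 2.66% lower, so the loci shared a direction with the chromosome's other genes; no test was made of a difference from them. 3 of the 4 lie in 1 stretch, all on the minus strand. 5530601H04Rik (chrX:105040854-105070124) read 63.6, 66.1 and 75.1 in NC-up, and 98.8, 120.0 and 109.8 in the SETDB2-up libraries (0.67 ± 0.19, limma adjusted p = 0.0197). Gm50594 (chrX:105286953-105339497) read 177, 176 and 175 against 307, 287 and 185 (0.52 ± 0.16, limma adjusted p = 0.0315). 5330434G04Rik (chrX:105372994-105391754) read 208, 203 and 232 against 298, 313 and 259 (0.43 ± 0.12, limma adjusted p = 0.0210). In all 3 the groups did not overlap, but in Gm50594 and 5330434G04Rik SETDB2-up 3 was the lowest of its group.

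The protein-coding genes around them differed among themselves. Pbdc1, 9607 bp from 5530601H04Rik, was at -0.01 and Magee1 at 0.11 (limma adjusted p = 0.216), although both lie between 5530601H04Rik and Gm50594. Atrx, a chromatin remodeller gene further along, was higher (0.33, limma adjusted p = 0.0458), with SETDB2-up 3 at 1171 among NC-up values of 1170, 1223 and 1251. The fourth X-linked locus, Kantr (chrX:152294824-152327493, minus), is named for its place beside Kdm5c and read 165, 112 and 153 against 208, 207 and 185 (0.49 ± 0.16, limma adjusted p = 0.0373). All 4 lost their call without SETDB2-up 1 (0.75, 0.38, 0.41 and 0.47 for 5530601H04Rik, Gm50594, 5330434G04Rik and Kantr) and without SETDB2-up 2 (0.61, 0.43, 0.38 and 0.47). Without NC-up 2, Gm50594 (0.52), 5330434G04Rik (0.40) and Kantr (0.33) lost it, and Gm50594 also without NC-up 3 (0.52). After the GC correction, 5530601H04Rik was at 0.48 (limma adjusted p = 0.151), 5330434G04Rik at 0.25 (0.233) and Kantr at 0.27 (0.322); Gm50594 has no transcript for it.

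The fixed lists of known lncRNAs placed 28 loci, and most of these did not pass the threshold. Of 5 nuclear-retained lncRNAs 1, Tug1, was higher, with a median log2 fold change of 0.17. Malat1, a component of nuclear speckles, read 15245, 14413 and 13152 in NC-up, and 18533, 19832 and 11307 in the SETDB2-up libraries. SETDB2-up 3 was the lowest of all 6 and the other SETDB2-up libraries the highest, so the groups overlapped (0.17, 95% interval -0.10 to 0.45, limma adjusted p = 0.393). Without SETDB2-up 1 and 2, which leaves 1 SETDB2-up library, Malat1 was at -0.33. Without SETDB2-up 3 it was higher (0.43, limma adjusted p = 1.93e-05). Its direction thus depended on which libraries were left out. Neat1, the scaffold of paraspeckles, read 10163, 9381 and 8849 against 11003, 12246 and 9028 (0.18, interval 0.00 to 0.35, limma adjusted p = 0.153). It too was higher without SETDB2-up 3 (0.30, limma adjusted p = 0.00114).

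Miat, a nuclear lncRNA abundant in neurons, read 7258, 7113 and 6265 against 6924, 8358 and 5470.0 (-0.01, interval -0.22 to 0.20, limma adjusted p = 0.959). Its NC-up values lay within the SETDB2-up range. Without SETDB2-up 1 and 2 it was at -0.33, and without SETDB2-up 3 at 0.15 (limma adjusted p = 0.144). Firre, an X-linked lncRNA that helps organise chromatin in the nucleus, read 1396, 1473 and 1149.5 against 1301, 1458 and 1134 (-0.05, interval -0.24 to 0.15, limma adjusted p = 0.786). Both sets of values covered the same range.

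**Figure D4:**
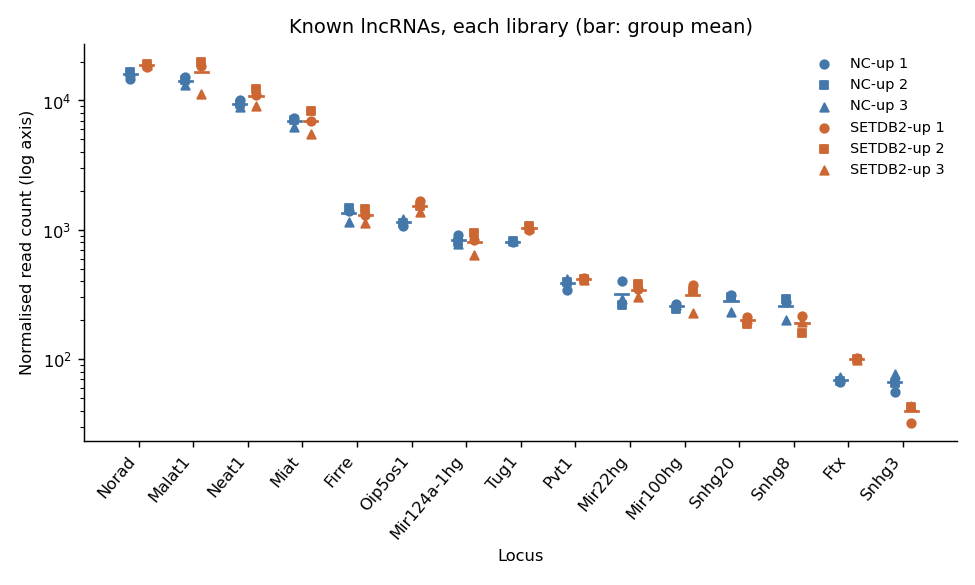
Known lncRNAs are shown with 1 symbol per library on a log axis of normalised read counts, and horizontal bars for the group means. Oip5os1, Tug1 and Norad have all SETDB2-up libraries above all NC-up libraries, while in Malat1 SETDB2-up 3 lies below every NC-up library.

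Small nucleolar RNA host genes carry guide RNAs for ribosomal RNA modification in their introns. Of 13 such loci 1, Snhg20, was lower and 0 were higher. The median was -0.16, with 10 of 13 below 0. Snhg3 read 56.1, 65.1 and 76.9 in NC-up, and 32.3, 42.7 and 43.7 in the SETDB2-up libraries, without overlap (-0.73 ± 0.25, limma adjusted p = 0.0528). It passed the threshold after the GC correction (-0.88, limma adjusted p = 0.0454). Snhg8 read 279, 294 and 201 against 215, 159.7 and 195, with overlap (-0.43 ± 0.15, limma adjusted p = 0.0617). The others, none of them called, were Snhg10 (-0.69), Snhg4 (-0.34), Snhg18 (-0.16), Snhg5 (-0.16), Epb41l4aos (-0.04), Snhg12 (-0.04), Snhg7 (-0.01), Snhg16 (0.14), Snhg17 (0.16) and Snhg1 (0.18).

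Of 4 microRNA host genes, 0 were called, and the median was 0.19. Mir124a-1hg, which carries the neuronal miR-124, read 916, 803 and 779 against 836, 941 and 639.8 (-0.06, limma adjusted p = 0.746). The SETDB2-up libraries spanned the NC-up range. The other values were 0.13 for Mir22hg, 0.25 for Mir100hg and 0.57 for Mir670hg. Without SETDB2-up 3, Mir100hg was higher (0.46, limma adjusted p = 0.0117).

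Of 4 neural lncRNAs 1, Oip5os1, was higher, with a median of 0.08, and the rest are given above. Of 5 growth and stress lncRNAs, 2 were higher, Norad and Tug1, with a median of 0.18. Pvt1, the neighbour of Myc, read 342, 396 and 417 against 425, 416 and 408 (0.12, limma adjusted p = 0.472), and Trp53cor1 (lincRNA-p21), the neighbour of Cdkn1a, was at -0.03. Myc was at 0.17 (limma adjusted p = 0.502), while Cdkn1a was lower (-0.47, limma adjusted p = 7.51e-05). None of the imprinted lncRNAs listed was among the 380.

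Ftx and Jpx belong to the X-inactivation centre, and 0 of these 2 loci were called. Ftx read 66.7, 68.0 and 72.4 in NC-up, and 103, 101 and 98.2 in the SETDB2-up libraries. All SETDB2-up libraries were above all NC-up libraries, yet the locus missed the threshold (0.54 ± 0.19, limma adjusted p = 0.0553). Jpx was at 0.43 ± 0.34 (limma adjusted p = 0.413). Cdr1os, named after its values were seen, gives rise to the circular RNA that binds miR-7 and read 48.7, 32.6 and 31.3 against 69.3, 73.2 and 50.9. The groups did not overlap and the threshold was just missed (0.78 ± 0.27, limma adjusted p = 0.0524). The gene Cdr1 was higher (1.09, limma adjusted p = 1.07e-06).

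Of the highest loci per kb not yet described, 1500011B03Rik was at -0.12 (limma adjusted p = 0.260) and Gm47814 at 0.25 (limma adjusted p = 0.250). By name, 315 of the 380 loci carry placeholder symbols, and of these 12 were higher and 7 lower (6.03% called). Of the 65 with other symbols, 4 were higher and 4 lower (12.3% called). Both shares were below the 16.4% over all genes. The 2 sets also differed in level, with a median of 42.0 normalised reads for placeholder symbols and 76.3 for the others.

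The loci were also set beside their neighbours. The nearest listed gene lay a median of 3866 bp away, and 71 of the 380 nearest genes (18.7%) were called, against 16.4% of all genes. A locus and its nearest gene had the same sign in 212 of 380 cases. Across loci, the log2 fold changes of locus and neighbour had a Pearson r of 0.16 and a Spearman rho of 0.18. This is a description over 380 loci that share the same 6 libraries, and loci that are each other's nearest gene enter from both sides. For 8 loci both the locus and its nearest gene were called, and for 6 of those in the same direction. Gm50594 and 5330434G04Rik, both higher, are each other's nearest listed gene, so their pair is counted from both sides in the 8 and in the 6.

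Loci that start back to back with their nearest gene, within 1000 bp on the other strand, numbered 110 (28.9%), with a median distance of 152.5 bp. Of these, 1 was higher (Tug1) and 4 were lower (Gm46065, Gm13375, Fam120aos and 6430573P05Rik), which is 4.55% called, against 7.11% of the 380 loci and 16.4% of all genes. The neighbour was called in 25 pairs, but both were called in 1 pair only, 6430573P05Rik with Rapgef2, in opposite directions. The signs were the same in 52 of the 110. By distance, 4 of the 205 loci within 5000 bp of a listed gene were higher (1.95%) and 7 lower (3.41%). Of the 175 farther away, 12 were higher (6.86%) and 4 lower (2.29%). All 4 shares were below those over all genes, 7.71% and 8.71%.

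**Figure D5:**
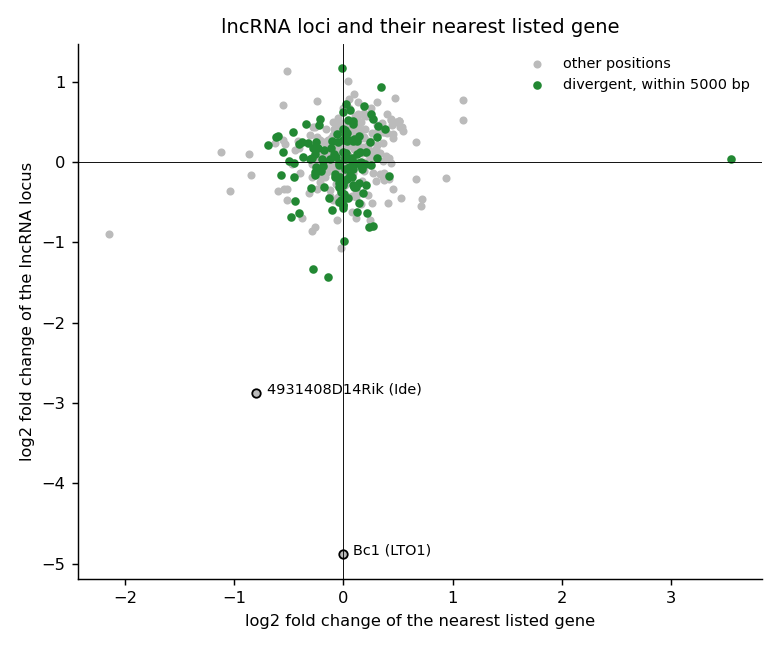
Each point is 1 locus: the horizontal axis is the log2 fold change of its nearest listed gene and the vertical axis that of the lncRNA locus, with loci that start back to back within 5000 bp in green. Points crowd around 0 on both axes, and Bc1 lies far below its neighbour LTO1 at -0.01.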

How the data were processed

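Polyadenylated RNA was sequenced from 6 trigeminal ganglion libraries, and per the labels' protocols the libraries were strand-specific and read as pairs. FastQC, HISAT2 and the GRCm38 build are named in the submitters' processing notes, without versions. Which program counted reads, with which annotation and strand setting, how size factors were set and how low genes were dropped is not stated in any source used here. Values of the deposited table are a normalised signal. The authors scaled each library's read counts by 1 factor, which the values show, since 100% of them were whole multiples of the library's step (tolerance 0.001 read).

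Differences were tested with limma (3.58.1, R 4.3.3) with a mean-variance trend on log2(value + 1), and 16387 genes were kept, those that reached a value of 1 in 3 or more libraries. P-values were adjusted over all of them by the Benjamini-Hochberg method, and a locus was called at an adjusted p under 0.05. Fold changes are on the log2(value + 1) scale and understate changes of low genes. Limma was the test set for normalised values, and edgeR (4.0.16), DESeq2 (1.42.0) and limma-voom on the recovered reads were alternatives. The GC correction subtracted, in each library, a loess trend (span 0.3) of the log2 values' deviation from the gene mean. The trend was with GC of the longest GENCODE M21 transcript, matched by identifier or symbol. The limma fit and its adjustment then covered only the 15528 tested genes with a transcript. Scripts were tested on simulated data. The floor of 3 reads covers only counting error, as reads lacking molecular identifiers are not independent molecules.

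Members and lists were chosen with earlier results of these data known. Loci were named when they belonged to a fixed list, were among the 10 largest rises or falls called without overlap between groups, had 1 of the 5 smallest p in a direction, 1 of the 8 highest means per kb, or the 3 highest or lowest means. Marker lists were sensory neuron, glia, liver, keratinocyte and muscle (above), fibroblast (summed level 21305 to 25124 in NC-up, 18764 to 21674 in SETDB2-up), endothelial (2375 to 2515.9, 2239.7 to 2336), macrophage (1705.7 to 2342.3, 1598.9 to 1893.3), red blood cell (7806 to 15313, 5249 to 15488) and central nervous system (7318 to 8157, 6658 to 7859). The muscle sum was 97.5 to 244 in NC-up and 34.2 to 93.7 in SETDB2-up. Among the fibroblast markers 2 were lower, among the endothelial markers 1 and among the red blood cell markers 1, with 0 higher in each. No macrophage or central nervous system marker was called. Same-numbered libraries of the groups deviated together only weakly and were not treated as pairs in the main test.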

Additional observations from a re-analysis of the deposited data

How the results depend on the processing

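The count of loci higher in SETDB2-up, 16, and of loci lower, 11, stayed within 1.5 times under a pseudocount of 0.1, no filter, a minimum of 10, edgeR with TMM or upper-quartile factors, DESeq2, limma-voom and the replicate block. Leaving out 1 library gave 5 to 22 higher and 5 to 11 lower, given without the shares over all genes in the same fits. Without SETDB2-up replicates 1 and 2, an alternative chosen after seeing the data, 0 were higher and 7 lower by limma, and the direction reversed for Gm26871 (-0.11) and Malat1 (-0.33). Those reversals are the ones among loci called with all libraries or in that fit. Loci called in neither also changed sign, among them Neat1 (0.18 to -0.07), Mir100hg (0.25 to -0.18) and Mir670hg (0.57 to -0.10). The fit without SETDB2-up replicates 1 and 2 leaves 1 SETDB2-up library, which is assumed to vary like the NC-up libraries. Among loci over 5000 bp from a listed gene, 4 were lower, a count over 175 loci only. The cause of the other changes was not tested. Limma-voom ended 5 calls, DESeq2 3 (Gm26871 at an adjusted p of 0.202 by DESeq2), edgeR with TMM 1 (6430573P05Rik at 0.0545) and the GC correction 18.

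With the replicate number as a block, 21 loci were higher and 15 lower, and no named call was lost. With the GC correction and the replicate block together, 9 of the 22 called loci with a transcript were still called, against 4 with the correction alone. The 5 gained were Oip5os1 (limma adjusted p = 0.0185), Norad (0.00833), D130009I18Rik (0.0493), Snhg20 (0.0339) and Fam120aos (0.0310). Deviations of same-numbered libraries correlated weakly, at 0.0383, 0.0359 and 0.0484. Those of differently numbered libraries correlated at -0.0347 to -0.00557, so every library correlated best with its own number. The numbers were not taken to pair the libraries in the main test, and whether they do was not tested.

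Depth limits the low loci most. Of the 380 loci, 206 had means under 50, with a median standard error of 0.35 on the log2 scale, so small changes there were not detectable.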
